A study of Mus musculus with 9 samples.

Results

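The proteasome genes measured here were the protein-coding genes whose symbol begins with Psm, a letter from a to g and a digit, without the immunoproteasome subunits Psmb8, Psmb9 and Psmb10, and 48 of the 56748 genes in the count table met this rule. RNA-seq counts came from 9 libraries of mouse hematopoietic stem cells (HSCs), which were sorted from bone marrow as Lin-Sca1+c-Kit+ CD48-CD150+ cells. The groups were young HSCs (yHSCs, from mice of 6 to 10 weeks) and pre-aged HSCs (paHSCs, from mice of 14 to 16 months) that were divided by surface P-selectin into Selp-low and Selp-high cells, with 3 libraries each. All mice were females on a C57BL/6 background. The study calls the libraries of a group biological replicates. Which animals or pools each library came from is not given in the sources used here, so the Selp-low and Selp-high libraries may share animals, and p-values measure the spread between these libraries.

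The proteasome degrades proteins that carry a ubiquitin chain. Its 20S core particle is a barrel of 4 stacked rings: the outer rings are built of alpha subunits (Psma genes), which gate the entrance, and the inner rings of beta subunits (Psmb genes), of which Psmb5, Psmb6 and Psmb7 encode the catalytic ones. The 19S cap binds the ends of the barrel, where ATPases (Psmc genes) unfold the substrate and non-ATPase subunits (most Psmd genes) recognise ubiquitin and remove it. Dedicated chaperones assemble both particles, and other activators can replace the cap. Control of protein turnover is known to matter for the maintenance of HSCs.

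Across the 47 members that passed the filter on low counts, no gene was called in any comparison by edgeR at an adjusted p of 0.05 and a log2 fold change of at least 1 in size. In Selp-low paHSCs against yHSCs, 42 of the 47 had higher fitted levels, and the median log2 fold change was 0.55, against 0.08 over all 20437 genes tested. The 14 constitutive genes of the 20S core had a median of 0.88, and each of the 14 was higher in all 3 Selp-low libraries than in all 3 yHSC libraries, as were 9.59% of all genes tested. The 17 genes of the 19S cap had a median of 0.41. In the same comparison short genes in general had higher levels in the Selp-low libraries, and this is set beside the result further on.

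The libraries held 24866975 to 35375310 counts. Values are given as CPM, counts scaled to a common library size with TMM factors, and levels of different genes are compared as CPM per kilobase of the gene length in the table (FPKM). The scaling factor was 0.545 in Selp-low replicate 2 and 0.785 in Selp-low replicate 3, and 1.05 to 1.22 in the other 7. The 10 most abundant genes took 44.8% and 20.9% of the counts of those 2 Selp-low libraries and 3.90% to 12.5% elsewhere. All 8 HSC marker genes examined had counts in every library, and their summed level was 1012 to 2269 CPM in yHSCs, 790 to 1479 CPM in Selp-low and 2111 to 3047 CPM in Selp-high paHSCs. B-cell markers summed to 5225 and 7391 CPM in Selp-low replicates 1 and 2 and to 50.3 CPM in replicate 3, against 90.1 to 437 CPM in the 6 other libraries. Of the 6 B-cell markers, only Pax5 was at 0 counts in a library, in Selp-high replicate 3. Plasma cell markers summed to 100087 CPM in Selp-low replicate 2 and 363 to 3573 CPM elsewhere, and neutrophil markers to 204612 CPM in Selp-low replicate 3 and 536 to 63326 CPM elsewhere. T and NK cell markers summed to 274, 793 and 630 CPM in the 3 Selp-low libraries, above the 6 others, of which the highest was at 151 CPM. In Selp-low replicate 3 Nkg7 was at 619 CPM and Klrb1c at 9.48 CPM, while Cd3e, Cd3g and Trac were at 0.487, 0.824 and 0.375 CPM. In Selp-low replicates 1 and 2, Cd3e was at 19.3 and 90.0 CPM. Monocyte and macrophage markers summed to 2022 CPM in Selp-low replicate 3 and 97.5 to 435 CPM elsewhere. In that library Ly6c2 was at 1988 CPM, and Cd14, at 23.6 CPM, was also the highest of all libraries. C1qa, Csf1r and Adgre1 were at 2.02, 4.23 and 4.87 CPM there, within or below the range of the other libraries. Erythroid markers summed to 211 to 2963 CPM with overlap of the 3 groups. These lineages lie outside the sort gate, and their part in the results was not tested. Megakaryocyte and platelet markers summed to 105 to 172 CPM in yHSCs, 122 to 1951 CPM in Selp-low and 1147 to 6728 CPM in Selp-high paHSCs, and cell cycle genes to 369 to 1905 CPM with the highest sum in Selp-low replicate 3. The part of these lists in the results was not tested either. In such bulk samples, fewer cells of a type and less RNA per cell cannot be told apart.

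Before scaling, the 48 members together took 0.909%, 0.726% and 0.705% of the counts in yHSCs, 0.988%, 0.503% and 0.829% in Selp-low and 0.999%, 0.780% and 0.865% in Selp-high paHSCs. Selp-low replicate 2 thus had the lowest share, and its scaled total of 9235 CPM rests on its scaling factor. After scaling, the members summed to 6705 ± 870 CPM in yHSCs, 9629 ± 810 CPM in Selp-low and 7967 ± 1311 CPM in Selp-high paHSCs (SD, n = 3). All 3 Selp-low sums lay above all 3 yHSC sums, while the Selp-high sums overlapped both.

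**Figure D1:**
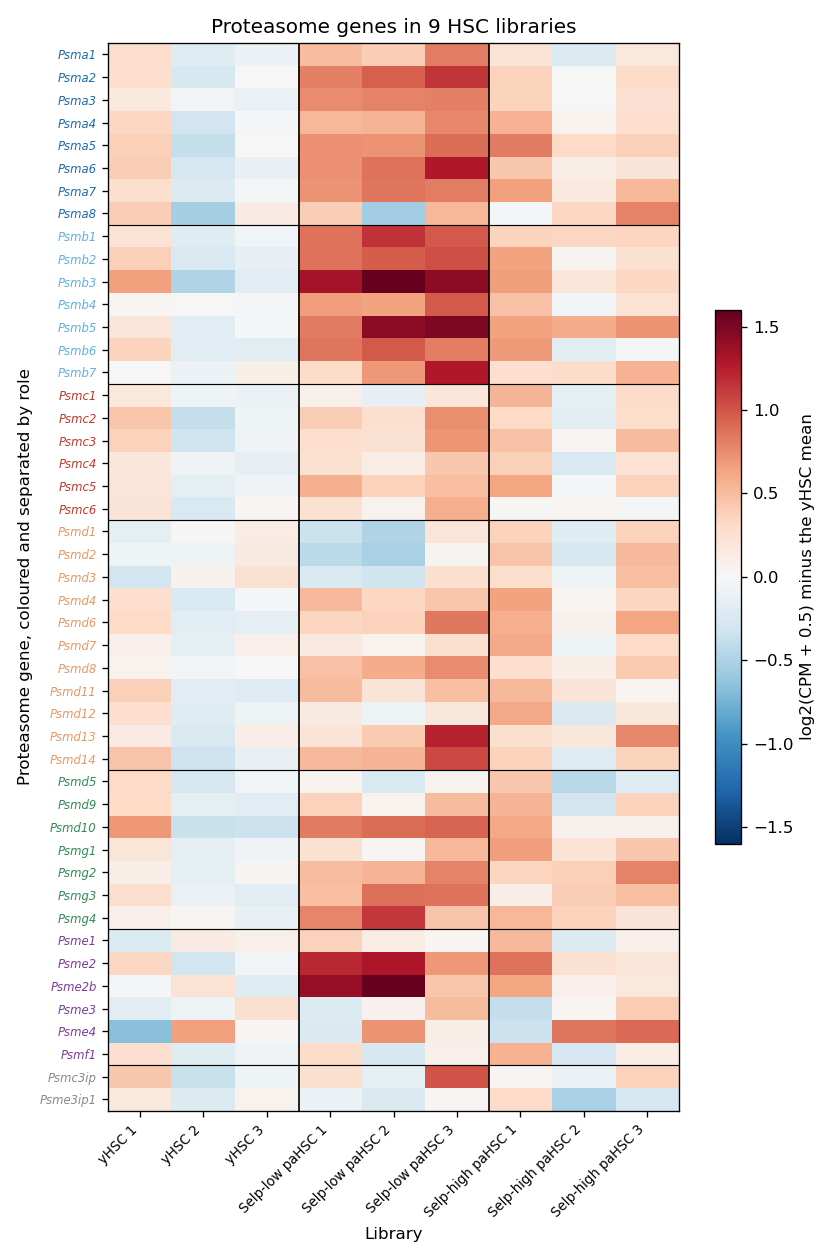
Level of each of the 47 tested proteasome genes (rows, grouped by role) in each of the 9 libraries (columns), as log2(CPM + 0.5) minus the mean of the 3 yHSC libraries. All 14 constitutive 20S genes are above every yHSC library in each of the 3 Selp-low libraries. The 19S rows are paler there, with 14 of 17 genes higher and 3 lower by the fitted fold change.

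By FPKM, the most abundant members averaged over the 9 libraries were Psmb2 (259), Psma6 (211) and Psmb6 (162), all subunits of the core. The lowest was Psmb11, the thymus-specific catalytic subunit, which had 4 counts over the 9 libraries, failed the filter and is given no fold change. Next came Psme4 (2.75), which encodes the activator PA200, and Psma8 (4.14), the testis-specific alpha subunit. Psma8 was at 11.7, 5.91 and 9.68 CPM in yHSCs, 11.6, 5.8 and 12.9 CPM in Selp-low and 8.58, 11.1 and 15.5 CPM in Selp-high paHSCs, and the groups overlapped.

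Promoter sequences are shown for 5 genes, the 20S genes Psmb5, Psmb3 and Psma2, which had some of the lowest p-values, and the 19S genes Psmd2 and Psmd1, which had the lowest fold changes in Selp-low paHSCs over yHSCs. They come from RefSeq for build GRCm38.p6 (the counts were made on mm39) and run from 250 bases before to 50 bases after the start site. Capitals mark the antioxidant response element TGACNNNGC, bound by the NRF family of factors, and the CCAAT box, both searched on both strands.
Psmb5 promoter, chr14:54617946-54618245 (minus strand): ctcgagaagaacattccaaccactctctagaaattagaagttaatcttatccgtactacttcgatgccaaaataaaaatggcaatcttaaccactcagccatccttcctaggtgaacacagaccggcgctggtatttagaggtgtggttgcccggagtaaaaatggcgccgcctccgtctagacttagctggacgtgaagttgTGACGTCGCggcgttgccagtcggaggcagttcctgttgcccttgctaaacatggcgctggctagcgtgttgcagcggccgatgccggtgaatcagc
Psmb3 promoter, chr11:97703184-97703483 (plus strand): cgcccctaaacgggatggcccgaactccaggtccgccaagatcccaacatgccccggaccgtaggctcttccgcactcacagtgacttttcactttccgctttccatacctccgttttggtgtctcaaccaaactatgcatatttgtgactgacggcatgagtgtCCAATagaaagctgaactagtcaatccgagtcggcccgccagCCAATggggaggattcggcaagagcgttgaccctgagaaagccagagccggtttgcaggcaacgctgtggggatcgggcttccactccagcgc
Psma2 promoter, chr13:14612992-14613291 (plus strand): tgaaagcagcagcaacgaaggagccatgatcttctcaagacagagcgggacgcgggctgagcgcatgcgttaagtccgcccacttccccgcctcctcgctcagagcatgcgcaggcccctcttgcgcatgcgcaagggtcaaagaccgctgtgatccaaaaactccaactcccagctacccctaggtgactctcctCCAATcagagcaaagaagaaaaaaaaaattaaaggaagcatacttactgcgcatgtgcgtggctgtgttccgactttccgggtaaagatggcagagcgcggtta
Psmd2 promoter, chr16:20651402-20651701 (plus strand): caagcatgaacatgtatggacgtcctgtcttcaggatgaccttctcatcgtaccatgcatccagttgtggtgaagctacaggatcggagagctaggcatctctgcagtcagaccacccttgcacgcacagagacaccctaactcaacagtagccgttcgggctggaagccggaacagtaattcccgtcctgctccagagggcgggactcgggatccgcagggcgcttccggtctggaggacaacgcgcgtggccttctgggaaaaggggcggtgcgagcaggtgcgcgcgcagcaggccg
Psmd1 promoter, chr1:86064369-86064668 (plus strand): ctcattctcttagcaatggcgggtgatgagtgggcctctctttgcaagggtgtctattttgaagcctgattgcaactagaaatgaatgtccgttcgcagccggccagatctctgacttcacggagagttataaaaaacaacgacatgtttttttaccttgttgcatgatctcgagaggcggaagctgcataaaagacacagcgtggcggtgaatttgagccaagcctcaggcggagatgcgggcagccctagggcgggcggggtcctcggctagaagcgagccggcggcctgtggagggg
Of the 48 members, 40 matched a promoter entry. The element TGACNNNGC was present in 6 of the 40 (15.0%: Psmb5, Psmb6, Psmc6, Psmd12, Psmd9 and Psme4) and in 12.4% of all 32851 promoters. CCAAT was present in 15 of the 40 (37.5%) and in 37.4% of all promoters. Both shares were near those of all promoters. Among core genes with an entry, 6 of 11 held CCAAT, and among cap genes 4 of 14. A match gives letters in this window, not a bound site.

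Selp-low paHSCs were compared with yHSCs to ask how proteasome transcripts differ between young cells and pre-aged cells with low surface P-selectin. At an unadjusted p under 0.05, edgeR gave 18 of the 47 members with higher levels and 0 with lower levels. Over all genes tested, 7.11% met this with higher and 4.17% with lower levels in Selp-low paHSCs. Every Selp-low library was above every yHSC library for 26 of the 47, against 9.59% of all genes, and below for 0, against 6.74%. None passed the adjusted threshold by edgeR, nor did any other gene (0%), and the lowest adjusted p over all genes was 0.33. Other tools differed in this: DESeq2 on the same genes called 5 members (Psmb1, Psmb3, Psmb5, Psme2 and Psme2b; 6.13% of the genes it gave an adjusted p), limma with voom quality weights called 10 (2.11% of all genes tested), and DESeq2 with no filter called 0 (2.63% of the genes it gave an adjusted p), so the calls depend on the tool and its filter.

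Among the catalytic subunits, Psmb5, which carries the chymotrypsin-like activity, had the lowest p of all members. It lies at chr14:54851576-54855479 of mm39, the build of the counts, on the minus strand. Its level was 93.4, 72.3 and 79.5 CPM in the 3 yHSC libraries, 145, 222 and 230.0 CPM in Selp-low and 127, 123 and 134 CPM in Selp-high paHSCs. The 3 groups did not overlap, with yHSCs lowest and Selp-low paHSCs highest. The log2 fold change of Selp-low over yHSCs was 1.32 ± 0.27 (adjusted p = 0.33), where the error is the SE. Psmb6, the caspase-like subunit, was at 290.3, 199 and 199.8 CPM in yHSCs and 410.5, 445 and 397 CPM in Selp-low paHSCs, with a log2 fold change of 0.90 ± 0.28 (adjusted p = 0.34). Psmb7, the trypsin-like subunit, was at 36.1, 33.5 and 38.3 CPM in yHSCs and 44.1, 58.6 and 88.3 CPM in Selp-low paHSCs, a log2 fold change of 0.86 ± 0.29 (adjusted p = 0.35). The 3 catalytic genes each lay above the yHSC range in all Selp-low libraries. Psmb7 overlaps Nek6 on the other strand, whose counts came to 73.1% of its own, and no source used here gives the strand setting of the counting.

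The 4 non-catalytic beta subunits were also above the yHSC range in every Selp-low library. Psmb3 had the largest log2 fold change of the core, 1.46 ± 0.38 (adjusted p = 0.33). It was at 210.2, 95.3 and 117 CPM in yHSCs and 337, 446 and 359 CPM in Selp-low paHSCs, with the first yHSC library well above the other two. Psmb1 was at 204, 153 and 169 CPM against 317, 387 and 343 CPM, with a log2 fold change of 1.03 ± 0.25 (adjusted p = 0.33). Psmb4, whose yHSC libraries agreed closely, was at 109.9, 106 and 106 CPM against 171, 168 and 212 CPM, a log2 fold change of 0.81 ± 0.21 (adjusted p = 0.33). Psmb2 was at 289, 186 and 201 CPM against 406, 434 and 451 CPM, a log2 fold change of 0.96 ± 0.28 (adjusted p = 0.34). All 7 tested beta genes thus had p under 0.05 before adjustment.

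The 7 constitutive alpha genes gave log2 fold changes from 0.60 (Psma1) to 1.00 (Psma2), and 5 of them had p under 0.05 before adjustment. Psma2 was at 263, 184 and 217 CPM in yHSCs and 384, 425 and 485 CPM in Selp-low paHSCs (1.00 ± 0.26, adjusted p = 0.33 on the log2 scale). Part of its interval is shared with AW209491 on the same strand, whose counts came to 15.8% of its own. Psma6 was at 245, 155 and 171 CPM against 309, 342 and 454 CPM, a log2 fold change of 0.98 ± 0.30 (adjusted p = 0.34). Psma3, Psma4, Psma5 and Psma7 gave log2 fold changes of 0.82, 0.63, 0.79 and 0.83. No Selp-low library overlapped the yHSC range for any of these 7 alpha genes.

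Each of the 3 Selp-low libraries was above every yHSC library for 14 of 14 core genes, and for 10, 6 and 15 of the 17 cap genes. Among them, replicate 3 had summed B-cell markers below every yHSC library but the highest neutrophil markers of all libraries, 204612 CPM. The 3 Selp-high libraries were above every yHSC library for 13, 3 and 7 of the 14 core genes and for 14, 2 and 12 of the 17 cap genes. Over all genes tested in Selp-low paHSCs over yHSCs, a single paHSC library was above every yHSC library for 25.4% to 28.6%. Leaving out 1 library moved the number of core genes with p under 0.05 by edgeR from 12 of 14 to 6 without yHSC replicate 2, to 6 without yHSC replicate 3 and to 10 to 13 without each of the other 4. Over all members the 18 became 8 without yHSC replicate 2, 8 without yHSC replicate 3, and 13 to 25 without each of the others.

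**Figure D2:**
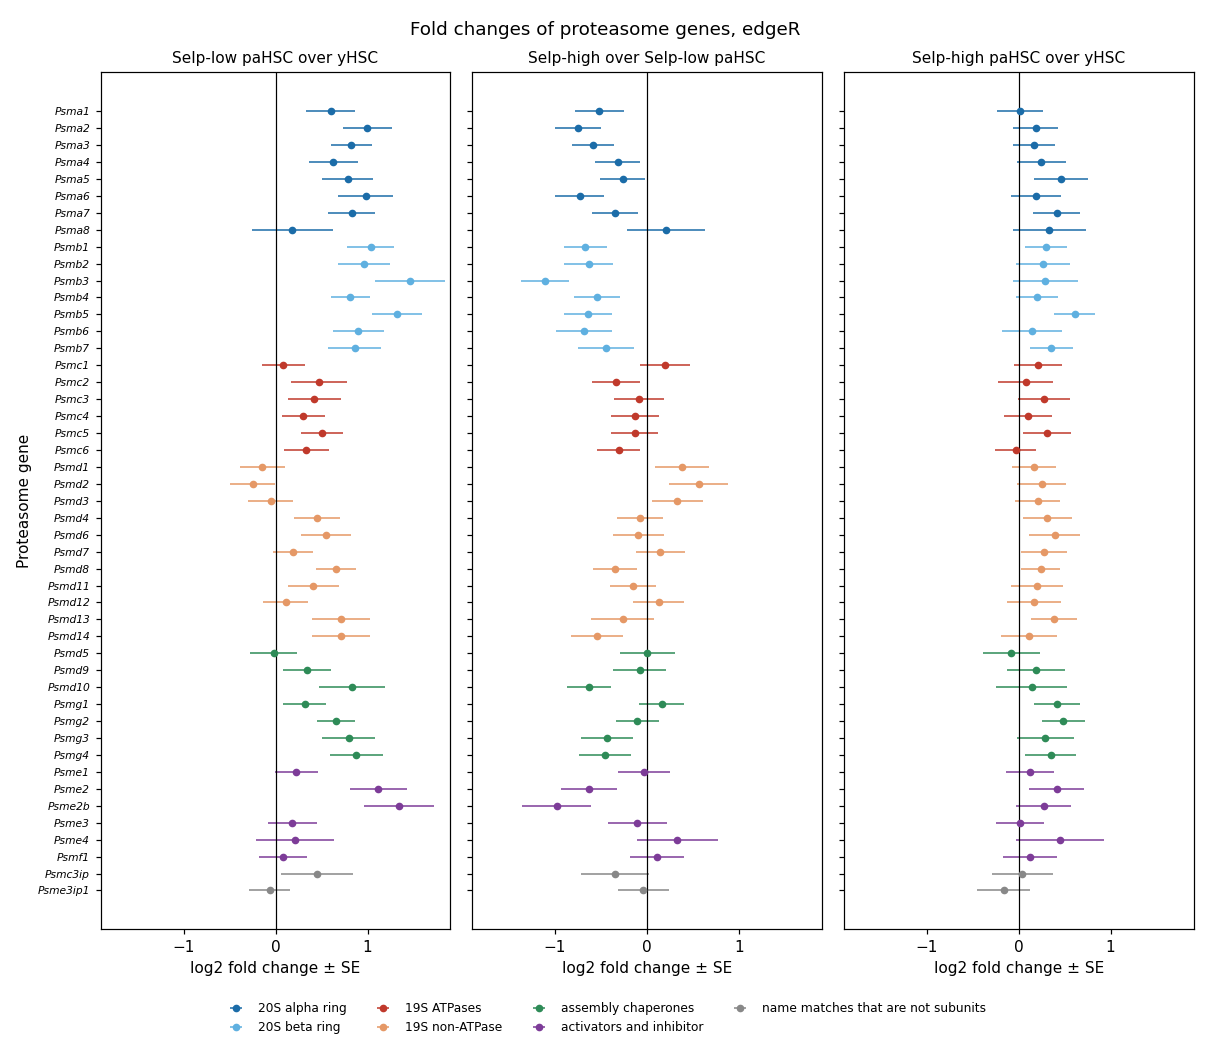
Log2 fold change of each of the 47 tested proteasome genes (points, coloured by role) with its SE (bars) in the 3 comparisons, by edgeR. In Selp-low paHSCs over yHSCs the 14 constitutive 20S genes lie between 0.60 and 1.46, and the 17 genes of the 19S cap between -0.25 and 0.72.

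The cap genes spread over a lower range. The 6 ATPases of the base gave log2 fold changes from 0.08 (Psmc1) to 0.51 (Psmc5), with Psmc2 at 0.47, Psmc3 at 0.42, Psmc4 at 0.30 and Psmc6 at 0.34, and 0 of 6 had p under 0.05. Among the 11 non-ATPase subunits, 1 did: Psmd8, with a log2 fold change of 0.65 ± 0.22 (adjusted p = 0.35). Psmd14, the deubiquitinase of the lid, was at 201, 116 and 134 CPM in yHSCs and 210.1, 213 and 305 CPM in Selp-low paHSCs (0.72 ± 0.32, adjusted p = 0.46 on the log2 scale). The lowest Selp-low library was only just above the highest yHSC library. Psmd4, a ubiquitin receptor, was at 210.4, 146 and 171 CPM against 249, 219 and 237 CPM, a log2 fold change of 0.45 ± 0.25 (adjusted p = 0.57). Psmd13, Psmd6, Psmd11, Psmd7 and Psmd12 gave 0.71, 0.55, 0.41, 0.19 and 0.11, where Psmd13 overlaps Sirt3 on the other strand, a gene with 114% of its counts.

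The 3 cap genes with a negative value were the scaffolds Psmd2 and Psmd1 and the lid subunit Psmd3. Psmd2 was at 325, 320.1 and 376 CPM in yHSCs and 252, 236 and 349.6 CPM in Selp-low paHSCs, a log2 fold change of -0.25 ± 0.24 (adjusted p = 0.83). Psmd1 was at 201, 223 and 241 CPM against 175, 158 and 253 CPM (-0.14 ± 0.25, adjusted p = 0.95), and its groups overlapped, as did those of Psmd2. Psmd3 was at 127, 165 and 186 CPM against 132, 126 and 188 CPM (-0.05 ± 0.25, adjusted p = 0.99). These 3 have the longest coding sequences of the cap, 1590 bases or more.

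The ratio of summed 20S to summed 19S FPKM, which does not depend on the scaling factor of a library, was 1.22, 1.05 and 1.06 in yHSCs, 1.62, 1.95 and 1.64 in Selp-low and 1.17, 1.26 and 1.06 in Selp-high paHSCs. The Selp-low libraries lay above all others, and the yHSC and Selp-high libraries overlapped. The mean was 1.11 ± 0.0970 in yHSCs, 1.74 ± 0.184 in Selp-low and 1.16 ± 0.101 in Selp-high paHSCs (SD, n = 3), so that Selp-low paHSCs were 1.56-fold above yHSCs. The ratio was chosen after the values were seen and is given with no test.

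Coding length moved with this ratio. The 14 core genes have coding lengths of 603 to 831 bases and the 17 cap genes of 930 to 2859 bases. Over all genes at a mean of at least 50 CPM, the median log2 fold change of Selp-low over yHSCs was 0.75 for coding lengths up to 600 bases, 0.35 from 600 to 900, 0.07 from 900 to 1500, -0.20 from 1500 to 3000 and -0.31 above 3000. In the bin from 600 to 900 bases the 721 genes had a median of 0.35 and an upper quartile of 0.67, and the 14 core genes a median of 0.88. In the bin from 900 to 1500 bases the 1305 genes had a median of 0.07 and the 14 cap genes there a median of 0.44. The difference between these bins over all genes was 0.16, -0.07 and -0.12 log2 units in the yHSC libraries, relative to their own mean, 0.30, 0.27 and 0.22 in Selp-low and 0.06, 0.10 and 0.02 in Selp-high paHSCs, and it was highest in the 3 Selp-low libraries, as was the ratio. After a trend on coding length was removed within each library, the 20S to 19S ratio was 1.14, 1.28 and 1.28 in yHSCs, 1.38, 1.67 and 1.51 in Selp-low and 1.15, 1.31 and 1.15 in Selp-high paHSCs, so that the fold of Selp-low over yHSCs was 1.23. With the same trend as an offset in edgeR, the core genes had a median log2 fold change of 0.60 with 9 of 14 at p under 0.05, and the cap genes a median of 0.41 with 1 of 17. When same-numbered libraries were also paired as a replicate block, the core median was 0.60 with 3 of 14 at p under 0.05. The cap median was then 0.46 with 0 of 17.

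**Figure D3:**
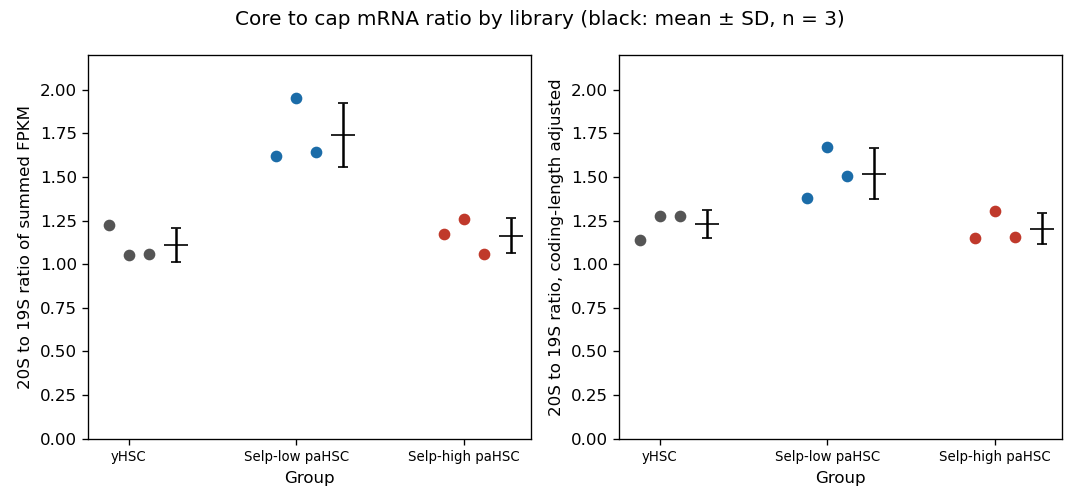
Ratio of summed 20S core to summed 19S cap transcripts in each library (points) with the mean and SD of each group (black), from FPKM (left) and after removal of a trend on coding length (right). The 3 Selp-low libraries are the highest on both sides, at 1.62 to 1.95 and at 1.38 to 1.67.

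**Figure D4:**
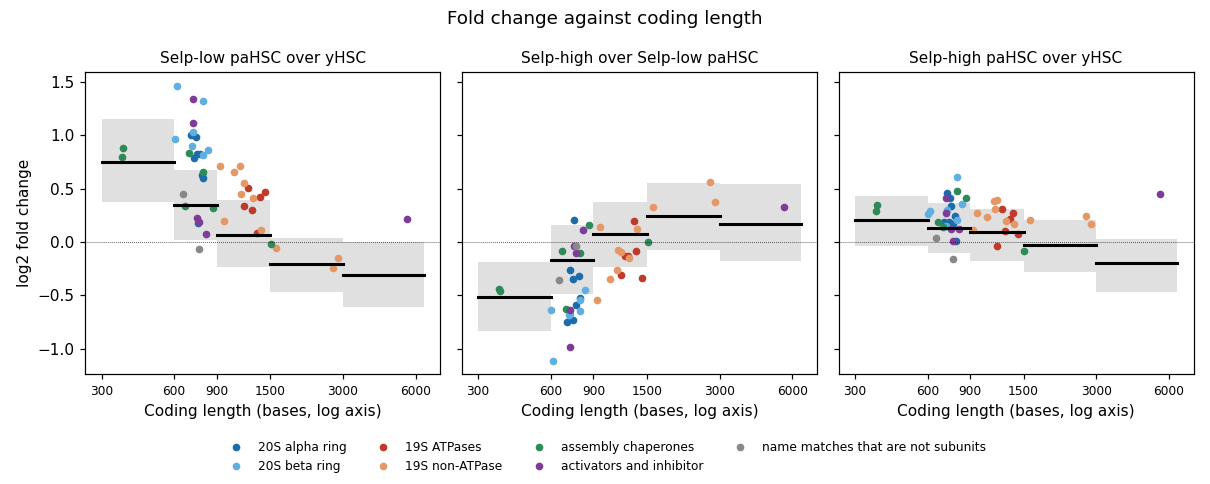
Log2 fold change of the 47 tested proteasome genes (points, coloured by role) against coding length on a log axis, in the 3 comparisons. Black lines and grey bands give the median and quartiles of all genes at a mean of at least 50 CPM in each range of length, and in Selp-low paHSCs over yHSCs the medians run from 0.75 for the shortest to -0.31 for the longest.

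Of the 7 assembly chaperones, 3 had p under 0.05 before adjustment in Selp-low paHSCs over yHSCs. Psmg4 was at 19.4, 18.8 and 16.9 CPM in yHSCs and 31.9, 40.6 and 25.3 CPM in Selp-low paHSCs (0.88 ± 0.28, adjusted p = 0.35 on the log2 scale), and Psmg3, its partner in alpha ring assembly, at 16.3, 12.4 and 11.8 CPM and 18.8, 24.97 and 24.7 CPM (0.79 ± 0.29, adjusted p = 0.37). With the coding-length offset the values of these 2 genes, of 369 and 366 coding bases, turned to -0.21 and -0.20. Psmg2 was at 61.6, 52.2 and 59.0 CPM and 81.3, 83.9 and 99.9 CPM (0.66 ± 0.21, adjusted p = 0.34), while Psmg1, with which it forms a heterodimer, was at 51.6, 40.8 and 43.5 CPM and 53.5, 46.2 and 65.6 CPM (0.32 ± 0.24, adjusted p = 0.72). The chaperones of the 19S base, Psmd10, Psmd9 and Psmd5, gave log2 fold changes of 0.83, 0.34 and -0.02.

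The activator genes were divided. Psme2, which encodes the beta subunit of the 11S activator PA28, was at 131, 84.5 and 101 CPM in yHSCs and 239.8, 256 and 168 CPM in Selp-low paHSCs, with a log2 fold change of 1.12 ± 0.31 (adjusted p = 0.33). The highest values were in Selp-low replicates 1 and 2, the libraries with high B-cell markers. Selp-low replicate 3, where the B-cell sum was low, was also above every yHSC library. In Selp-high paHSCs Psme2 was at 189, 123 and 119 CPM, and replicate 1 of these had a B-cell sum of 215 CPM. The part of the B-cell transcripts in these values was not tested. Psme2b, a copy of Psme2 that the counting may not separate from it, was at 28.5, 34.0 and 25.2 CPM and 77.4, 96.3 and 39.5 CPM (1.34 ± 0.38, adjusted p = 0.33). Psme1, the alpha subunit of the same activator, was at 236, 301 and 292 CPM and 355, 299 and 282 CPM (0.23 ± 0.24, adjusted p = 0.85), and its groups overlapped. Psme3, the nuclear activator PA28 gamma, was at 213, 227 and 287 CPM and 207, 252 and 342 CPM (0.18 ± 0.26, adjusted p = 0.92). Psme4 was at 11.3, 29.2 and 18.5 CPM and 15.5, 30.6 and 19.5 CPM (0.22 ± 0.42, adjusted p = 0.96), and the inhibitor Psmf1 at 124, 89.7 and 96.98 CPM and 126, 85.7 and 108 CPM (0.08 ± 0.26, adjusted p = 0.99). Psmc3ip and Psme3ip1 match the rule by name but encode no subunit; their log2 fold changes were 0.45 and -0.06, with Psme3ip1 at 114, 86.4 and 105 CPM and 94.8, 86.1 and 103 CPM.

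Selp-high paHSCs were compared with Selp-low paHSCs to ask what separates the pre-aged subsets. Since this comparison and the one above share the Selp-low libraries, their values are not independent. Of the 47 members, 36 had lower and 11 higher fitted levels in Selp-high paHSCs. Their median log2 fold change was -0.26, against -0.11 over all 20370 genes tested. At an unadjusted p under 0.05 there were 9 lower and 0 higher members, against 5.67% and 6.88% of all genes. Every Selp-high library was below every Selp-low library for 15 members, against 10.6% of all genes, and above for 0, against 10.3%. By edgeR 0 members were called, as were 0 of all genes (0%). DESeq2 on the same genes called 1, Psmb3 (5.52% of the genes it gave an adjusted p), while limma (0% of all genes) and DESeq2 with no filter (2.46% of the genes it gave an adjusted p) called 0. The median of the members was -0.17 without Selp-high replicate 2 and -0.13 without Selp-low replicate 3. The number at p under 0.05 by edgeR fell to 1 without Selp-high replicate 3, to 2 without Selp-high replicate 2, Selp-low replicate 1 or Selp-low replicate 2, and to 4 without Selp-low replicate 3.

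The core again held most of these genes, 7 of the 9, with a median of -0.61 for its 14 genes against -0.09 for the 17 cap genes. The sign of the cap median was not stable, at 0.05 under limma, 0.05 without Selp-high replicate 2 and 0.08 without Selp-low replicate 3. Psmb3 was at 337, 446 and 359 CPM in Selp-low and 213, 153 and 167 CPM in Selp-high paHSCs, a log2 fold change of -1.11 ± 0.27 (adjusted p = 0.34). Psma2 was at 384, 425 and 485 CPM and 283, 219.7 and 271 CPM (-0.75 ± 0.25, adjusted p = 0.34), and Psmb1 at 317, 387 and 343 CPM and 223, 219 and 220.3 CPM (-0.67 ± 0.23, adjusted p = 0.35). For each of these 3 the groups did not overlap. The other core genes lay between -0.73 (Psma6) and -0.26 (Psma5), with Psmb5 at -0.64 ± 0.26, Psmb6 at -0.69 ± 0.31 and Psmb7 at -0.44 ± 0.30. Length moved here in the opposite sense: the median over all genes was -0.17 from 600 to 900 bases and 0.24 from 1500 to 3000 bases. With the coding-length offset the core median was -0.50 and the cap median -0.25, with 3 of 14 and 0 of 17 genes at p under 0.05.

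The higher members with the lowest p were the cap genes Psmd2, Psmd1 and Psmd3. Psmd2 was at 252, 236 and 349.6 CPM in Selp-low and 467, 285 and 488 CPM in Selp-high paHSCs (0.56 ± 0.32, adjusted p = 0.52 on the log2 scale), Psmd1 at 285, 194 and 285 CPM in Selp-high paHSCs (0.38 ± 0.30, adjusted p = 0.64) and Psmd3 at 192, 150.5 and 221 CPM (0.33 ± 0.27, adjusted p = 0.66). All 3 overlapped between the groups. Psmd14 gave -0.54 ± 0.28 and Psmd4 -0.08 ± 0.25. The values of Psme1, Psme2, Psme3, Psme4 and Psmf1 were -0.03 ± 0.29, -0.64 ± 0.30, -0.11 ± 0.32, 0.33 ± 0.44 and 0.11 ± 0.29, and those of Psmg1, Psmg2, Psmg3 and Psmg4 were 0.16 ± 0.24, -0.11 ± 0.24, -0.44 ± 0.28 and -0.46 ± 0.28.

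Selp-high paHSCs were also compared with yHSCs. The median log2 fold change of the 47 members was 0.24 against -0.03 over all 20017 genes tested, with 44 higher and 3 lower. Only Psmb5 had p under 0.05 before adjustment (1 higher and 0 lower, against 4.48% and 3.11% of all genes). Every Selp-high library was above every yHSC library for 8 members, against 8.52% of all genes, and below for 0, against 5.28%. By edgeR 0 members were called and 33 of all genes (0.165%), and 0 members were also called by DESeq2 (3.73% of the genes it gave an adjusted p), DESeq2 with no filter (3.26%) and limma (1.37% of all genes tested). The median of the members was 0.11 without Selp-high replicate 1 and 0.39 without yHSC replicate 1. This comparison shares the yHSC libraries with the first and the Selp-high libraries with the second.

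Psmb5 was at 127, 123 and 134 CPM in Selp-high paHSCs, above all yHSC libraries, with a log2 fold change of 0.61 ± 0.22 (adjusted p = 0.54). Next by p were the chaperones Psmg2, at 72.9, 74.9 and 99.7 CPM (0.48 ± 0.23, adjusted p = 0.74), and Psmg1, at 72.0, 52.7 and 61.2 CPM (0.42 ± 0.25, adjusted p = 0.86), whose Selp-high libraries also lay above the yHSC range. The 3 lower members were Psme3ip1 at 125, 70.1 and 83.1 CPM (-0.16 ± 0.29, adjusted p = 1.00), Psmd5 at 204, 137 and 160.4 CPM in yHSCs and 222, 121 and 143 CPM in Selp-high paHSCs (-0.08 ± 0.31, adjusted p = 1.00), and Psmc6 at 126, 91.4 and 111 CPM and 109.7, 111 and 107 CPM (-0.03 ± 0.23, adjusted p = 1.00). Psmb6 gave 0.15 ± 0.32, Psmb7 0.35 ± 0.23, Psmd4 0.31 ± 0.27 and Psmd14 0.11 ± 0.30. The log2 fold changes of Psme1, Psme2, Psme3, Psme4 and Psmf1 were 0.12 ± 0.26, 0.41 ± 0.30, 0.01 ± 0.26, 0.45 ± 0.48 and 0.12 ± 0.29, and those of Psmg3 and Psmg4 were 0.29 ± 0.31 and 0.35 ± 0.28.

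Other genes of the ubiquitin-proteasome pathway were set beside the members, 32 of the 33 listed being in the table. In Selp-low paHSCs over yHSCs their median log2 fold change was 0.17, against 0.08 over all genes tested. At an unadjusted p under 0.05 there were 7 higher and 0 lower, against 7.11% and 4.17% of all genes. The 7 were Psmb8, Psmb9, Psmb10, Sem1, Pomp, Ubb and Rps27a. The trend on coding length described above holds for this comparison too, with a median of 0.75 over all genes up to 600 bases. Coding lengths and values with the offset are not given here for the pathway genes, so their share in these 7 was not tested. The immunoproteasome subunits, which replace the catalytic ones after interferon and are abundant in lymphocytes, divided the Selp-low libraries. Psmb8 was at 191, 193 and 191 CPM in yHSCs and 433, 487 and 194 CPM in Selp-low paHSCs (1.01 ± 0.39, adjusted p = 0.40), Psmb9 at 274, 336 and 191 CPM in Selp-low paHSCs (0.95 ± 0.29, adjusted p = 0.34) and Psmb10 at 212, 212 and 111 CPM (0.85 ± 0.32, adjusted p = 0.38). Their values were highest in Selp-low replicates 1 and 2, where B-cell markers were high, and closer to the yHSC level in Selp-low replicate 3. In Selp-high paHSCs Psmb8 was at 338, 183 and 171 CPM, Psmb9 at 232, 157 and 173 CPM and Psmb10 at 209.8, 117 and 127 CPM. Selp-high replicate 1, the highest of these for all 3 genes, had a B-cell sum of 215 CPM. The part of the B-cell transcripts in these values was not tested. The small cap subunit Sem1 was at 129, 77.0 and 84.2 CPM and 144, 196 and 402 CPM (1.37 ± 0.44, adjusted p = 0.34), and the ubiquitin receptor Adrm1 at 152, 158 and 151 CPM and 178, 177 and 184 CPM (0.27 ± 0.20, adjusted p = 0.71). Pomp, the maturation factor of the core, was at 187, 129 and 121 CPM and 226, 253 and 227 CPM (0.73 ± 0.28, adjusted p = 0.39). Nfe2l1, which encodes the factor NRF1 that drives proteasome genes when the proteasome is impaired, was at 35.7, 70.2 and 93.1 CPM and 40.1, 65.9 and 54.1 CPM (-0.25 ± 0.37, adjusted p = 0.93), and Nfe2l2, which encodes NRF2, at 197, 241 and 219 CPM and 163, 117 and 252 CPM (-0.27 ± 0.30, adjusted p = 0.87).

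In Selp-high over Selp-low paHSCs the median of the pathway genes was -0.01, against -0.11 over all genes tested. At an unadjusted p under 0.05 there were 1 higher and 1 lower, against 6.88% and 5.67% of all genes. The higher gene was Ubqln4, a ubiquitin shuttle, with a log2 fold change of 0.89 ± 0.35 (adjusted p = 0.38), and the lower was Sem1 with -1.06 ± 0.40 (adjusted p = 0.37). In Selp-high paHSCs over yHSCs the median was 0.10, against -0.03 over all genes tested. By edgeR 0 had p under 0.05, against 4.48% of all genes with higher and 3.11% with lower levels. The lowest p belonged to Psmb10 (0.53 ± 0.28, adjusted p = 0.81) and Ddi2, the protease that activates NRF1 (-0.57 ± 0.35, adjusted p = 0.86).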

How the data were processed

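The deposited values are raw counts per gene in 9 libraries. Per the authors' methods and processing notes, RNA was amplified with a SMARTer Ultra Low kit, reads were trimmed with fastp, aligned with HISAT2 2.2.1 to mm39 and counted with featureCounts 2.0.6. For the release of the annotation, for strand and for multi-mapping reads, the settings were not given in the sources used here. Columns of per-sample values left unused numbered 0.

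Each pair of groups was fitted alone in R 4.3.3 with edgeR 4.0.16 (filterByExpr, TMM, quasi-likelihood test with the legacy setting, Benjamini-Hochberg adjustment over all genes tested), and SEs were derived from the log2 fold change and the F statistic. Genes with an adjusted p up to 0.05 and a log2 fold change of 1 or more in either direction were called. With 3 against 3 libraries an exact permutation test cannot go below p = 0.1, so none was used. The alternatives were RLE and upper-quartile factors, other filters, DESeq2 1.42.0, limma 3.58.1 with voom quality weights, edgeR's newer setting, all libraries in 1 fit, the protein-coding genes only, a replicate block and each library left out. DESeq2 kept the same filter and an alpha of 0.05. A run of DESeq2 with no filter was added after it was seen that DESeq2 made more calls with the filter than without it for 2 of the 3 comparisons, and an offset on coding length (GENCODE M21, GRCm38; loess, span 0.5), DESeq2 with the block and the 20S to 19S ratio were also chosen after seeing the data. Scripts were tested on simulated data.

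Every member is named. Those with values by library, for many of them in the yHSC and Selp-low libraries alone, are the catalytic subunits, Psmd4, Psmd14, activators, inhibitor, chaperones Psmg1 to Psmg4, the 3 members with the lowest p in each direction and the 3 with the highest and lowest FPKM. Other genes given so were named after their values were seen. The members and lists were chosen with earlier results of these data known. Residuals of same-numbered libraries correlated at 0.178, 0.277 and 0.303 in Selp-high against Selp-low paHSCs, and in the replicate block the numbers were taken to pair the libraries. This pairing comes from the data, since no label states it. The main fit had no block, so its p-values and SEs do not use the pairing. Depth was 24866975 to 35375310 counts per library, and a count of 0 was taken to allow 3 counts, or 0.0695 to 0.198 CPM, for counting error only.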

Additional observations from a re-analysis of the deposited data

How the results depend on the processing

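Members called were 0 by edgeR in each comparison under every edgeR alternative, with or without the fold-change minimum. DESeq2 called 1 in Selp-high over Selp-low paHSCs (5.52% of the genes it gave an adjusted p) and 5 in Selp-low paHSCs over yHSCs (6.13%). In the latter, limma with voom quality weights called 10 (2.11% of all genes tested). DESeq2 with the replicate block called 1 (10.2% of the genes it gave an adjusted p) and 4 (4.29%) in these comparisons, in that order. With 1 library left out, in edgeR or DESeq2, the calls numbered 0 to 2 for Selp-high over Selp-low paHSCs. For Selp-low paHSCs over yHSCs they numbered 0 to 13, where the 13 came from DESeq2 without yHSC replicate 1. The cause was not tested. The share of all genes called with 1 library left out is not given here, so these counts stand without that background. The median log2 fold change of the members kept its sign under every alternative, namely -0.33 to -0.18 for Selp-high over Selp-low, 0.13 to 0.34 for Selp-high over yHSCs and 0.43 to 0.62 for Selp-low over yHSCs, with no library left out. With 1 library left out, in edgeR or DESeq2, it was -0.35 to -0.13, 0.078 to 0.42 and 0.38 to 0.76. It moved by over 1.5 times for Selp-high over Selp-low without Selp-high replicate 2 (-0.17 in both tools) or Selp-low replicate 3 (-0.13 and -0.16), and for Selp-high over yHSCs without Selp-high replicate 1 (0.11 and 0.078), yHSC replicate 1 (0.39 and 0.42) or, in DESeq2 alone, yHSC replicate 3 (0.095). With no library left out, the median for Selp-high over yHSCs also moved this far with the coding-length offset (0.13) and with the block and offset together (0.15). The fold of the 20S to 19S ratio in Selp-low paHSCs over yHSCs was 1.23 with coding-length adjusted levels, and that in Selp-high paHSCs over yHSCs, 1.05, became 0.978. The replicate block moved the members at p under 0.05 from 9 to 12 in Selp-high over Selp-low paHSCs and changed no member's call in edgeR, while calls over all genes went from 0 to 9. In the other comparisons the libraries share only a number (residual correlations of -0.417 to 0.0525 and 0.0281 to 0.0917), and the block left the members called at 0, while calls over all genes in Selp-high paHSCs over yHSCs went from 33 to 0.

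With the coding-length offset, the log2 fold changes of members that changed sign were, for Selp-low paHSCs over yHSCs Psmd2 0.0144, Psme1 -0.0479, Psme3 -0.0617, Psmd1 0.12, Psmd3 0.11, Psmd5 0.0694, Psmf1 -0.13, Psmg4 -0.21, Psmg3 -0.20, Psma8 -0.0597, and for Selp-high over Selp-low paHSCs Psme1 0.0451, Psmd5 -0.20, Psmd12 -0.0481, Psme3ip1 0.0266, Psmd9 0.0571, Psmg4 0.30, Psmg3 0.24, and for Selp-high paHSCs over yHSCs Psma1 -0.0972, Psme1 -0.0113, Psme3 -0.0814, Psmc3ip -0.0842. With the replicate block and the coding-length offset together, the log2 fold changes of members that changed sign were, for Selp-low paHSCs over yHSCs Psmd2 0.0455, Psme1 -0.0435, Psme3 -0.0850, Psmd1 0.14, Psmd3 0.0985, Psmd5 0.14, Psmf1 -0.13, Psmg4 -0.21, Psmg3 -0.27, Psma8 -0.0877, and for Selp-high over Selp-low paHSCs Psme1 0.0354, Psmd5 -0.24, Psmd12 -0.0774, Psme3ip1 0.00199, Psmd9 0.0376, Psmg4 0.30, Psmg3 0.31, and for Selp-high paHSCs over yHSCs Psma1 -0.0818, Psme1 -0.0153, Psme3 -0.12, Psmc3ip -0.0667. Under limma with voom quality weights, the log2 fold changes of members that changed sign were, for Selp-low paHSCs over yHSCs Psme3 -0.0452, Psmd5 0.12, and for Selp-high over Selp-low paHSCs Psmc3 0.0621, Psme3 0.23, Psmd5 -0.14, Psmd6 0.0716, Psmd13 0.15, Psmg2 0.0751, and for Selp-high paHSCs over yHSCs Psme1 -0.0167, Psmc6 0.0489. With the replicate block alone, in the fit that pairs same-numbered libraries, the log2 fold changes of members that changed sign were, for Selp-low paHSCs over yHSCs Psmd5 0.00185, and for Selp-high over Selp-low paHSCs Psmd5 -0.0397, and for Selp-high paHSCs over yHSCs Psme3 -0.0136. With DESeq2 and the replicate block, the log2 fold changes of members that changed sign were, for Selp-high over Selp-low paHSCs Psmd5 -0.0610, and for Selp-high paHSCs over yHSCs Psme3 -0.0283. With no filter, the log2 fold changes of members that changed sign were, for Selp-high over Selp-low paHSCs Psme1 0.0281, Psme3ip1 0.0270. For Selp-high over Selp-low paHSCs, Psmd5 became -0.00686 with RLE factors, -0.0561 with upper-quartile factors, -0.00403 with mean of at least 10 counts, -0.00694 with DESeq2 after the filter, -0.0671 with protein-coding genes alone. For Selp-high paHSCs over yHSCs, Psma1 became -0.0147 with RLE factors, -0.0317 with upper-quartile factors, -0.0146 with DESeq2 after the filter, -0.00437 with protein-coding genes alone, -0.0138 with DESeq2 with no filter. For Selp-high paHSCs over yHSCs, Psmc3ip became -0.0172 with upper-quartile factors. With 1 library left out in turn, in edgeR or DESeq2, the members whose log2 fold change crossed 0 had these ranges: for Selp-low paHSCs over yHSCs Psma8 -0.0873 to 0.48, Psmc1 -0.0613 to 0.22, Psmd12 -0.0333 to 0.31, Psmd3 -0.30 to 0.0681, Psmd5 -0.19 to 0.20, Psme3 -0.0815 to 0.32, Psme3ip1 -0.22 to 0.0790, Psme4 -0.16 to 0.59, Psmf1 -0.0927 to 0.28, and for Selp-high over Selp-low paHSCs Psma8 -0.0906 to 0.42, Psmc3 -0.18 to 0.0810, Psmc3ip -0.59 to 0.0362, Psmc4 -0.29 to 0.0331, Psmc5 -0.32 to 0.0231, Psmd12 -0.13 to 0.31, Psmd13 -0.47 to 0.11, Psmd4 -0.26 to 0.0630, Psmd5 -0.31 to 0.18, Psmd6 -0.19 to 0.0869, Psmd7 -0.0534 to 0.30, Psmd9 -0.28 to 0.13, Psme1 -0.27 to 0.13, Psme3 -0.32 to 0.11, Psme3ip1 -0.34 to 0.13, Psmf1 -0.14 to 0.29, and for Selp-high paHSCs over yHSCs Psma1 -0.14 to 0.24, Psmb6 -0.19 to 0.42, Psmc2 -0.11 to 0.41, Psmc3ip -0.14 to 0.37, Psmc4 -0.0624 to 0.27, Psmc6 -0.16 to 0.15, Psmd10 -0.14 to 0.66, Psmd11 -0.00550 to 0.48, Psmd12 -0.0964 to 0.39, Psmd14 -0.0663 to 0.46, Psmd5 -0.41 to 0.16, Psmd9 -0.0178 to 0.44, Psme1 -0.11 to 0.27, Psme3 -0.20 to 0.19, Psmf1 -0.14 to 0.35.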

Other observations

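Of the 48 members, 22 overlap another gene in the table, and 9 overlap one with at least 1000 counts over the 9 libraries. The table also lists 5 pseudogenes with a matching symbol. Psma5-ps had 204 to 555 counts per library, Psmb6-ps2 and Psmb5-ps had 0 to 79 each, Psmb6-ps had 0 to 20 and Psmb7-ps2 had 0 to 2.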
